A study of Mus musculus with 20 samples.

Results

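The genes described here are the nuclear genes of oxidative phosphorylation in the liver of mice on a high-fat diet (HFD). They were taken by name, as the protein-coding genes with at least 10 counts over all libraries whose symbol begins with Nduf, Uqcr or Atp5, is or begins with Sdha, Sdhb, Sdhc or Sdhd, or begins with Cox followed by a digit. This gave 104 members of the 15522 genes tested. Of 107 rows with such names, 3 had fewer than 10 counts and were left out: the testis-type subunits Cox7b2 and Cox8c and a second Atp5o entry. By textbook role, 36 members are subunits of complex I (7 core and 29 accessory), 4 of complex II, 8 of complex III, 11 of complex IV and 16 of complex V. The other members are 23 assembly and associated factors and 6 isoforms of complex IV known from other tissues. The 13 protein-coding genes of the mitochondrial genome were not analysed here.

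Male C57Bl/6J mice, 8 weeks old at the start, all ate a diet with 42% of its energy from fat for 12 weeks, and no group on a lean diet is among these libraries. After 2 weeks they were gavaged once with corn oil (HFD control), with Aroclor 1260 at 20 mg/kg (HFD + Aroclor), with PCB 126 at 20 µg/kg (HFD + PCB 126), or with both at these doses (HFD + Aroclor + PCB 126, called the combined exposure). Aroclor 1260 is a commercial mixture of polychlorinated biphenyls (PCBs) that do not mainly act like dioxin, whereas PCB 126 is a dioxin-like congener that binds the aryl hydrocarbon receptor. Each group held 5 mice with 1 liver library each, and the tests therefore measure the spread between mice. Whole liver was sequenced, so fewer cells of a type and less RNA per cell cannot be told apart.

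Oxidative phosphorylation couples the oxidation of nutrients to the making of ATP in the inner mitochondrial membrane. Complex I takes electrons from NADH and complex II takes them from succinate. Both pass them through ubiquinone to complex III and, by way of cytochrome c, to complex IV, which reduces oxygen. Complexes I, III and IV pump protons, and complex V lets them back to drive ATP synthesis. Hepatocytes are rich in mitochondria and draw on this chain for fatty acid oxidation, gluconeogenesis and urea synthesis. Most of its subunits are encoded in the nucleus, and the transcription factors NRF-1 (Nrf1), GABP (Gabpa) and YY1 are known to act at many of their promoters.

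The sequences printed here are stretches of 30 bases around matches to the NRF-1 motif, the letters GCGCA and GCGC with any 1 base between them, read on both strands. They are shown because the same letters stand before the start of members that fell, did not change or rose with the combined exposure. Of the 104 members, 85 matched a RefSeq promoter (GRCm38.p6, 250 bases before to 50 after the start of the gene). The motif was found in 21 of these 85 (24.7%), against 5.19% of 27025 promoters of all genes. Among members called lower with the combined exposure it was present in 8 of 35 (22.9%), and among the others in 13 of 50 (26%). The capitals mark the match and each stretch is written on the strand of its gene, 5′ to 3′. The first 4 lie before members that were called lower, and the next 3 before members that passed no test. The last lies before Ndufaf4, which was called higher.
Ndufa11, chr17:56717692-56717721, plus strand: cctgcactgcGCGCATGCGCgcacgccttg
Ndufa8, chr2:36049349-36049378, minus strand: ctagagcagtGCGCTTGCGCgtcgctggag
Ndufs6, chr13:73328479-73328508, minus strand: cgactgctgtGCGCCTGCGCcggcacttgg
Atp5g2, chr15:102671070-102671099, minus strand: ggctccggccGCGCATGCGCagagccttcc
Sdha, chr13:74350276-74350305, minus strand: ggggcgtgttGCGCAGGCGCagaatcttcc
Sdhd, chr9:50603909-50603938, minus strand: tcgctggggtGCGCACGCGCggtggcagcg
Atp5c1, chr2:10080430-10080459, minus strand: ctgagctcccGCGCACGCGCactgagtccc
Ndufaf4, chr4:24897960-24897989, plus strand: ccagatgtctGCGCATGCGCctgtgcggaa

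The centre of the match printed lay between 108 bases (Ndufaf4) and 11 bases (Ndufs6) before the start of the gene. Sdha held 2 more matches, at 93 and 5 bases before its start, which are not printed. The GABP motif CCGGAAGT was present in 10.6% of the member promoters against 4.31% of all, and the YY1 motif AAGATGGCG in 10.6% against 1.64%. The ERR motif TCAAGGTCA was found in 2.35% against 0.466%, and the cyclic AMP response element TGACGTCA in 4.71% against 2.03%. A match is a stretch of letters and does not show that a factor binds there.

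The libraries held 21836506 to 36854887 counts. Their differences along transcript GC content and length bear on every result below. In each library, the slope of a gene's level against the GC content of its principal transcript was taken over genes of 1 CPM (counts scaled to a common library size) or more, as log2 units per 10 percentage points of GC. In the HFD control mice the slope averaged 0.25 ± 0.18 (SD, n = 5). It averaged 0.01 ± 0.09 with Aroclor alone, 0.11 ± 0.21 with PCB 126 alone and -0.37 ± 0.20 with both. The combined exposure differed from the control by -0.62 (two-sided exact permutation test, p = 0.00794, the smallest that groups of 5 can give), HFD + Aroclor by -0.25 (exact p = 0.0159) and HFD + PCB 126 by -0.14 (exact p = 0.286). GC-rich genes thus had lower values across the whole transcriptome of the combined-exposure libraries. The slope against length differed in the same way between the combined exposure and the control, by 0.10 per doubling of length (exact p = 0.00794), so that short transcripts had lower values. HFD + Aroclor (exact p = 0.206) and HFD + PCB 126 (exact p = 0.587) did not pass that test. The median member is 849.5 bases long against 2786 for all genes, while its GC content of 51.1% is near the 50.5% of all genes. The library numbers run group by group, so exposure and the order of the libraries cannot be told apart. Counts are therefore given as deposited and also after a GC correction, and for the combined exposure after a correction for GC and length.

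Per length, the members formed a steep range of levels in HFD control livers. Levels as FPKM, which divide the CPM by transcript length, were highest for Ndufa4, a small subunit of complex IV with a name from complex I, at 787 FPKM. Next were Atp5g3, which encodes the ring subunit c of complex V, at 769 FPKM and Atp5b, the catalytic beta subunit, at 738 FPKM. The lowest levels among the 75 structural subunits were 6.97 FPKM for Atp5l and 12.0 FPKM for Ndufb4. Of their 75-base words, 76.0% and 35.2% also occur elsewhere in the transcriptome, so their reads may have been shared out or lost in counting. Class medians were 92.4 FPKM for core and 112 FPKM for accessory subunits of complex I. They were 199 FPKM for complex II, 199 FPKM for complex III, 350 FPKM for complex IV and 331 FPKM for complex V. Assembly and associated factors had a median of 9.27 FPKM, below every structural class.

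Within complex V the F1 subunits were unequal at the transcript level. The alpha subunit Atp5a1 stood at 473 FPKM, the gamma subunit Atp5c1 at 328 FPKM, the epsilon subunit Atp5e at 390 FPKM and the delta subunit Atp5d at 155 FPKM. The enzyme contains several copies of alpha and beta for each of the others. In complex IV the liver isoforms dominated each pair: Cox4i1 was at 567 FPKM against 0.146 FPKM for the lung isoform Cox4i2. Cox6a1 was at 350 FPKM against 0.127 FPKM for the muscle isoform Cox6a2, and Cox8a at 285 FPKM against 3.02 FPKM for the muscle and brown fat isoform Cox8b. Cox7a2 stood at 347 FPKM against 5.34 FPKM for the muscle isoform Cox7a1, and Cox6b1 at 419 FPKM against 0.916 FPKM for the testis isoform Cox6b2. Ndufa4l2, the counterpart of Ndufa4, was at 1.10 FPKM. The control means of Cox8b, Cox7a1 and Cox6a2 were raised by HFD control replicate 4, a library with muscle transcripts. Cox8b had 5.00 CPM in it and at most 0.191 CPM in the other control mice. Cox7a1 had 5.66 CPM against at most 1.88 CPM, and Cox6a2 0.395 CPM against at most 0.0381 CPM.

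Summed over its structural subunits, complex I had 3674 ± 407 CPM (SD, n = 5) in HFD control mice. It had 3252 ± 491 CPM with Aroclor alone, 3664 ± 610 CPM with PCB 126 alone and 3037 ± 221 CPM with both. The sums of complex I in the control mice were 4122, 3754, 3979, 3170 and 3344 CPM, and in the combined exposure 3276, 3209, 2987, 2713 and 3001 CPM. The ranges met only through HFD control replicate 4, at 3170 CPM. Complex II had 1292 ± 109 CPM in the control and 1368 ± 147, 1392 ± 47.7 and 1360 ± 110.1 CPM in the exposed groups, with overlapping ranges throughout. Complex III had 1620 ± 142, 1484 ± 228, 1628 ± 209 and 1470 ± 72.7 CPM in the same order. Complex IV, the proton pump that reduces oxygen, had 2624 ± 311, 2280 ± 432, 2554 ± 482 and 2160 ± 139 CPM. Complex V had 5384 ± 398, 5111 ± 654, 5551 ± 503 and 5115 ± 276 CPM. Sums weigh the abundant genes most and were not tested. Summed levels were lowest in the combined exposure for complexes I, III and IV, and for complex V with Aroclor alone.

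**Figure D1:**
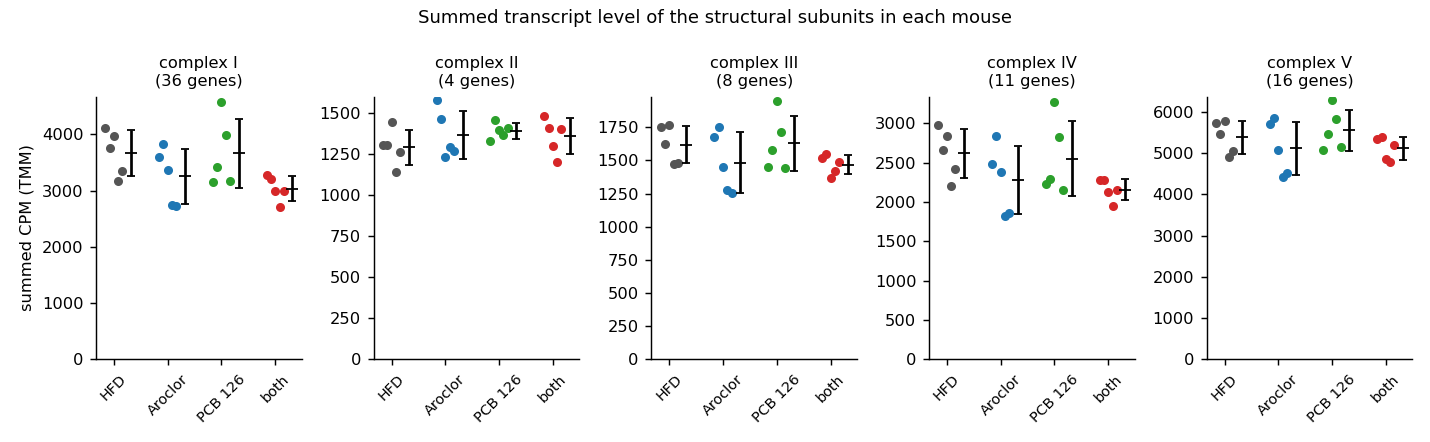
Summed CPM of the structural subunits of each complex (vertical axis, from 0) in every mouse (points) of the 4 groups, with the mean and SD at the right of each group. The combined exposure lies low for complexes I (3037 CPM against 3674 in the control) and IV (2160 against 2624), and complex II shows no such difference.

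The question put to the combined exposure was whether both agents together change the liver transcriptome of HFD-fed mice. Against HFD control, 39 of the 104 members (37.5%) were called lower and 5 (4.81%) higher at an adjusted p under 0.05, where 17% and 15.8% of all genes tested were called. The median log2FC was -0.25 over members and -0.00096 over all genes. All genes tested include many at low levels. With a filter at 1 FPKM in 3 libraries and on average, 42% of 100 members were lower and 6% higher, against 27.2% and 23.6% of 9836 genes. The 39 members called lower without that filter came from every complex: 4 of 7 core and 12 of 29 accessory subunits of complex I, 1 of 4 in complex II, 4 of 8 in complex III, 6 of 11 in complex IV and 6 of 16 in complex V, with 5 of 23 assembly factors and the isoform Cox7a1. In 20 members all combined-exposure mice lay below all control mice, against 8.14% of all genes, and in 3 members (Ndufs1, Ndufaf4 and Atp5s) all lay above, against 10.6%. After GC correction 18 members (17.3%) were lower and 1 was higher, against 5.24% and 3.54% of all genes (8.77% in all), and the median over members was -0.24. After correction for GC and length 12 were lower (11.5%) and 9 higher (8.65%), against 4.83% and 3.46% of all genes, with medians of -0.07 over members and -0.02 over all genes. With each library's GC slope as a covariate 11 of the 44 called members kept their sign and none was called, Cox6a2 was the 1 member called, and the median over members was 0.15. The slopes ran from 0.010 to 0.48 in the control and from -0.64 to -0.13 in the combined exposure, without overlap. This fit can therefore hardly tell the exposure from the slope. The direction of the changes below is thus that of the counts as deposited, unless a correction is named.

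**Figure D2:**
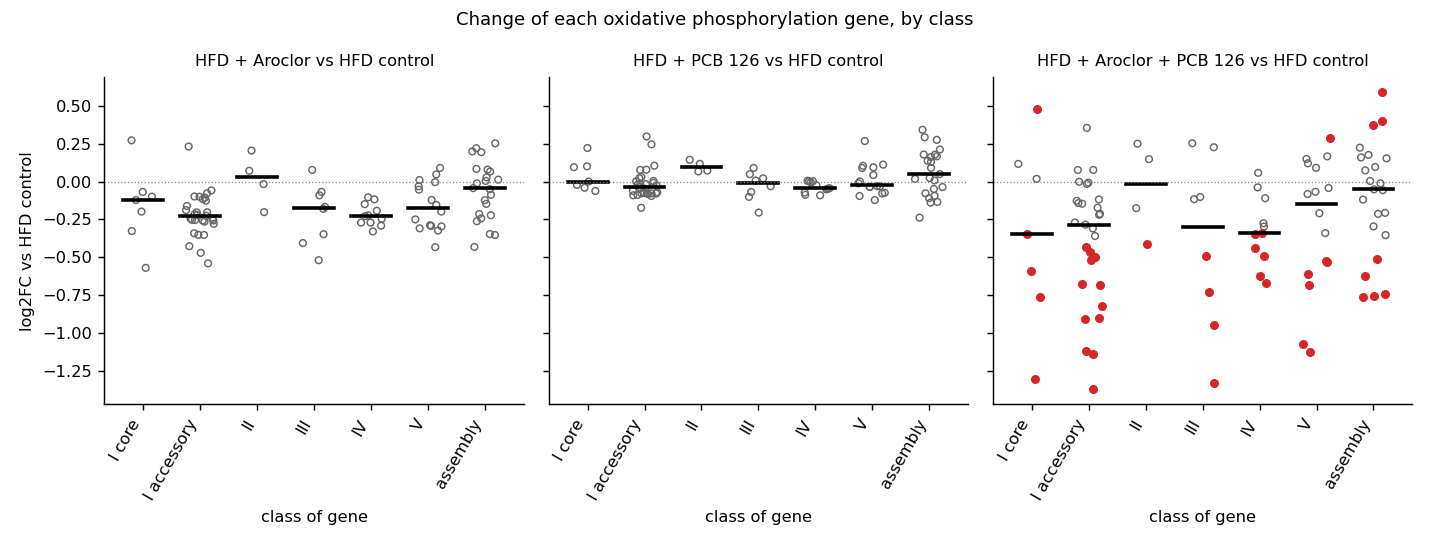
Log2FC against HFD control (vertical axis) of the members by class (horizontal axis) in the 3 exposed groups, without correction. The 6 tissue isoforms of complex IV are not drawn. Filled red points are called at an adjusted p under 0.05, open points are not, and bars are class medians. Filled points appear in the combined exposure alone, below and above 0. Over all members 39 were called lower, among them the isoform Cox7a1, which is not drawn, and 5 higher. The median over members was 0.15 when the GC slope was a covariate, a fit that can hardly tell this exposure from the slope.

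In complex I, the 7 core subunits carry flavin and iron-sulfur clusters or the ubiquinone site, and they moved apart. Ndufs7 (chr10:80249121-80256794, plus strand), which holds the last iron-sulfur cluster before ubiquinone, had 48.6, 34.7, 50.7, 24.9 and 39.4 CPM in the control mice and 20.6, 17.2, 20.1, 8.98 and 13.4 CPM in the combined exposure. The groups did not overlap, and the log2FC was -1.31 ± 0.24 (SE; edgeR, adjusted p = 0.00115). Ndufs1 (chr1:63143596-63176833, minus strand), the largest subunit and the carrier of further iron-sulfur clusters, had 132, 157, 167, 173 and 154 CPM in the control and 230, 224, 184, 219 and 234 CPM in the combined exposure. It too did not overlap but in the other direction, with a log2FC of 0.48 ± 0.12 (adjusted p = 0.00473). Ndufs7 is 60.7% GC and Ndufs1 46.6% GC. After GC correction Ndufs7 was at -0.62 ± 0.15 (adjusted p = 0.0159) and Ndufs1 at 0.23 ± 0.09 (adjusted p = 0.140). The cluster subunit Ndufs8 (-0.76) and the flavin subunit Ndufv1 (-0.59) were also called lower, and neither remained so with GC correction (adjusted p = 0.190 and 0.411). Ndufs3 (0.02 ± 0.11) and Ndufv2 (0.12 ± 0.11) passed no test.

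Of the accessory subunits of complex I, 12 were called lower and none higher, with a class median of -0.28, and 7 were lower after GC correction. Ndufb7 (chr8:83566671-83571626, plus strand), an intermembrane-space subunit, had 56.7, 40.1, 59.9, 24.7 and 39.1 CPM in the control and 22.8, 17.9, 23.8, 7.78 and 13.01 CPM in the combined exposure. Every combined-exposure mouse lay below every control mouse, with a log2FC of -1.37 ± 0.29 (adjusted p = 0.00213) and of -0.75 ± 0.20 after GC correction (adjusted p = 0.0234). Ndufa8 (chr2:36036326-36049406, minus strand), likewise an intermembrane-space protein and one of those with the NRF-1 letters printed above, had 108, 89.2, 104, 68.1 and 82.2 CPM in the control and 65.0, 54.8, 61.5, 32.9 and 40.9 CPM in the combined exposure. Its groups did not overlap, at -0.83 ± 0.19 (adjusted p = 0.00295) and, GC corrected, -0.58 ± 0.15 (adjusted p = 0.0220). Ndufa2, a matrix subunit with a thioredoxin-like fold, was at -0.91 ± 0.23 (adjusted p = 0.00498) and hardly moved with GC correction, at -0.87 ± 0.22. Ndufa11 (-1.14 and, GC corrected, -0.60), Ndufa7 (-0.90 and -0.57) and Ndufa1 (-0.46 and -0.68), a small membrane subunit, were also lower by both fits. Ndufa13 (-1.12), at 60.4% GC, was not called after GC correction (-0.46, adjusted p = 0.0920). With the GC slope as a covariate the signs of Ndufb7 (0.22), Ndufa8 (0.16), Ndufa2 (0.26), Ndufa11 (0.29), Ndufa7 (0.18) and Ndufa1 (0.20) turned.

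Complex II, which is also an enzyme of the tricarboxylic acid cycle, changed in 1 of its 4 subunits. The iron-sulfur subunit Sdhb had 261, 234, 234, 162 and 185 CPM in the control and 185, 170, 165, 133 and 155 CPM in the combined exposure. The groups overlapped, and the log2FC was -0.41 ± 0.14 (adjusted p = 0.0250), with -0.10 ± 0.11 after GC correction (adjusted p = 0.661). The flavin subunit Sdha ran the other way, at 554, 612, 671, 567 and 634 CPM in the control and 782, 753, 652, 657 and 770 CPM in the combined exposure. Its log2FC of 0.25 ± 0.10 missed the threshold (adjusted p = 0.0618). The membrane anchors Sdhc (-0.18 ± 0.10) and Sdhd (0.15 ± 0.10) passed no test.

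In complex III 4 of 8 subunits were called lower, 3 of them small membrane subunits. Uqcr11 (chr10:80402997-80406830, minus strand), a small membrane subunit, had 104, 74.6, 112, 37.7 and 69.0 CPM in the control and 42.1, 31.3, 44.1, 15.8 and 24.2 CPM in the combined exposure. HFD control replicate 4 lay within the exposed range, and the log2FC was -1.33 ± 0.28 (adjusted p = 0.00217) and, GC corrected, -0.75 ± 0.20 (adjusted p = 0.0272). Uqcr10 was lower by both fits (-0.95 ± 0.22, adjusted p = 0.00340, and -0.60 ± 0.17, adjusted p = 0.0366), and Uqcrq only without correction (-0.73 ± 0.20, adjusted p = 0.00878, and -0.17 ± 0.17, adjusted p = 0.592). The core proteins differed: Uqcrc1, 57.5% GC, was at -0.49 ± 0.14 (adjusted p = 0.0130), whereas Uqcrc2, 44.4% GC, was at 0.23 ± 0.09 (adjusted p = 0.0698). After GC correction Uqcrc1 stood at 0.02 ± 0.10 and Uqcrc2 at -0.13 ± 0.09. The Rieske iron-sulfur protein Uqcrfs1, a catalytic subunit, was at -0.12 ± 0.10 (adjusted p = 0.395).

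In complex IV 6 of 11 structural subunits were called lower and none higher, with a class median of -0.34. Cox7c (chr13:86044816-86046904, minus strand), a small membrane subunit, had 89.9, 77.2, 84.3, 59.4 and 68.2 CPM in the control and 55.6, 49.6, 54.1, 38.9 and 47.3 CPM in the combined exposure. All exposed mice lay below all control mice, at a log2FC of -0.63 ± 0.17 (adjusted p = 0.00757) and of -0.88 ± 0.20 after GC correction (adjusted p = 0.0123). Of the 75-base words of Cox7c, 50.4% occur elsewhere in the transcriptome. Cox4i1, a regulatory subunit, was at -0.67 ± 0.17 (adjusted p = 0.00531) but at -0.16 ± 0.12 after GC correction (adjusted p = 0.449). Cox6a1 (-0.49) and Cox8a (-0.44) turned to 0.11 and 0.15 with GC correction. Cox5a (0.06 ± 0.13), Cox5b (-0.28 ± 0.16) and Ndufa4 (-0.04 ± 0.13) passed no test.

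In complex V 2 of 5 subunits of the catalytic F1 part and 4 of 11 of Fo and the stalk were called lower, and 1 was higher. The catalytic beta subunit Atp5b had 1396, 1442, 1494, 1373 and 1364 CPM in the control and 1442, 1452, 1259, 1188 and 1336 CPM in the combined exposure. The groups overlapped, with a log2FC of -0.08 ± 0.09 (adjusted p = 0.515). Atp5a1 (-0.04 ± 0.09) and Atp5c1 (0.15 ± 0.09) also passed no test. The delta subunit Atp5d, 61.1% GC, fell by 1.07 ± 0.24 (adjusted p = 0.00251) and was at -0.37 ± 0.13 after GC correction (adjusted p = 0.0789). Atp5j2 (chr5:145183698-145192062, minus strand), the f subunit of Fo, had 250.1, 234, 228, 176 and 185 CPM in the control and 169, 167, 157, 122 and 130.5 CPM in the combined exposure. Its groups did not overlap, at -0.53 ± 0.16 (adjusted p = 0.0133) and, GC corrected, -0.59 ± 0.16 (adjusted p = 0.0291). Atp5f1, the b subunit of the stalk, was higher without correction only (0.29 ± 0.10, adjusted p = 0.0266, and 0.17 ± 0.10, adjusted p = 0.304). Of its 75-base words, 27.9% are shared with other transcripts. Atp5j, coupling factor 6, was called higher after GC correction only (0.52 ± 0.15, adjusted p = 0.0331, and 0.09 ± 0.13 without). Atp5g2, a subunit c gene, was at -1.13 ± 0.25, but all of its words are shared with other transcripts and its counts are uncertain.

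**Figure D3:**
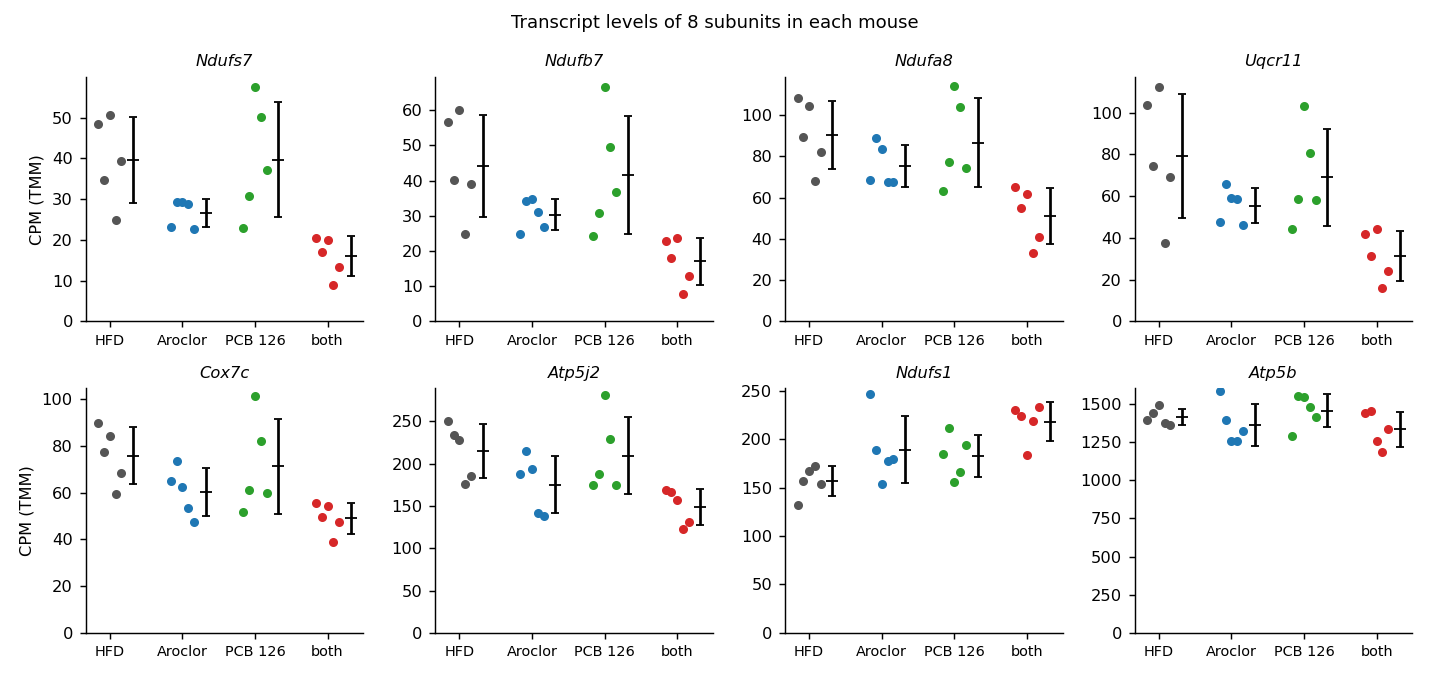
CPM (vertical axis, from 0) of 8 subunits in each mouse (points) of the 4 groups, with the mean and SD at the right of each group. For Ndufs7 and Ndufb7 every mouse of the combined exposure lies below every HFD control mouse, for Ndufs1 every one lies above, and for Atp5b the groups overlap. With the GC slope as a covariate, which can hardly be told from this exposure, the signs of Ndufb7, Ndufa8, Uqcr11, Cox7c and Atp5j2 turned.

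Assembly and associated factors moved in both directions, with 5 lower, 3 higher and a median of -0.05. Ndufaf4 (chr4:24898083-24905001, plus strand), an assembly factor of complex I, had 28.2, 31.5, 42.8, 33.5 and 32.2 CPM in the control and 50.5, 56.9, 45.2, 46.5 and 54.4 CPM in the combined exposure. The groups did not overlap and the log2FC was 0.59 ± 0.11 (adjusted p = 0.00104), but its transcript is 39.5% GC and after GC correction the difference was 0.01 ± 0.10 (adjusted p = 0.979). Cox19 (chr5:139336189-139351418, minus strand), a copper-handling factor of complex IV assembly, had 55.5, 44.4, 41.5, 43.1 and 51.5 CPM in the control and 28.1, 28.8, 35.5, 21.2 and 27.2 CPM in the combined exposure. All exposed mice lay below all controls, at -0.74 ± 0.15 (adjusted p = 0.00138) and, GC corrected, -0.75 ± 0.14 (adjusted p = 0.00484). Cox16, which acts in the assembly of Cox2, was at -0.63 ± 0.18 (adjusted p = 0.0106) and -1.31 ± 0.23 (adjusted p = 0.00391). Since 88.5% of its words are shared, above all with the readthrough gene Gm20498, its values are uncertain. Ndufaf3 was lower only without correction (-0.76 ± 0.17, adjusted p = 0.00254, and -0.36 ± 0.12, adjusted p = 0.0756). Atp5s (0.40 ± 0.09) and Cox11 (0.37 ± 0.11), a factor that places copper in complex IV, were higher without correction. Atp5s turned to -0.22 with GC correction, and Cox11 was at 0.29 (adjusted p = 0.101). Of the 75-base words of Cox11, 47.1% are shared with Tom1l1. Sdhaf2 and Sdhaf3, which assemble complex II, were called lower after GC correction only (-0.29 ± 0.07 and -0.41 ± 0.11), with -0.01 and 0.16 before it.

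The called members followed the GC trend of the whole transcriptome. Of the members under 47% GC, 2 of 20 (10%) were called lower, of those from 47% to 52% 7 of 37 (18.9%), from 52% to 57% 18 of 33 (54.5%), and at 57% or more 12 of 14 (85.7%). Over all genes tested these shares were 0.595%, 5.96%, 28.6% and 49%. In each bin the members' share was above that of all genes, which was not tested. All genes tested include many at low levels, so these shares are not matched for level. After GC correction the members' shares were 30%, 10.8%, 12.1% and 28.6%, and those of all genes 5.13%, 6.03%, 5.37% and 3.9%. Members called lower had a median GC content of 55.4% and a median length of 623 bases, and members called higher 46.6% and 1604 bases.

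**Figure D4:**
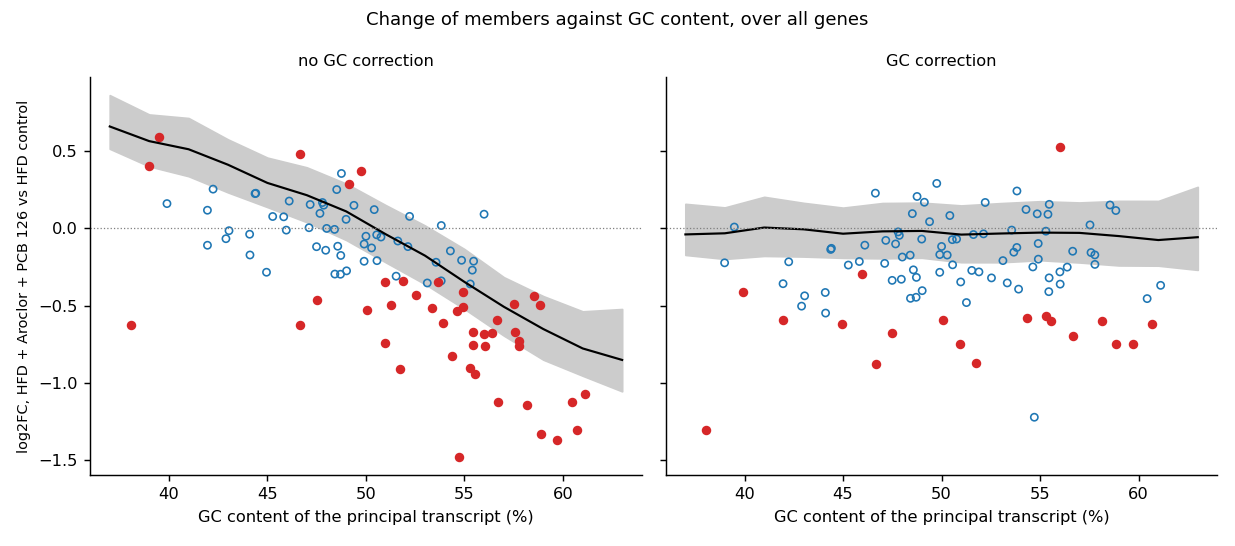
Log2FC of the combined exposure against HFD control (vertical axis) by GC content of the principal transcript (horizontal axis, percent), without (left) and with (right) GC correction; points are members at 1 CPM or more (filled when called), the line and grey band are the median and quartiles of all genes in bins of GC. On the left members descend with GC content as all genes do. Over all members, including those under 1 CPM that are not drawn, 12 of the 14 at 57% GC or more were called lower. On the right the trend of all genes is flat, and the median over all members was -0.24. With the GC slope as a covariate, which can hardly be told from this exposure, their median was 0.15.

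Length moved with the changes as well. Members under 600 bases had a median log2FC of -0.53 (29 genes), those of 600 to 1000 bases of -0.31 (32), those of 1000 to 2000 of -0.07 (30) and longer ones of -0.04 (13). All genes at 1 CPM or more had medians of -0.44, -0.35, -0.18 and 0.09 in the same bins. Called lower were 62.1%, 37.5%, 23.3% and 15.4% of the members in these bins. Of all genes at 1 CPM or more the shares were 43.9%, 41.9%, 33.1% and 17%. With GC correction the members had -0.45, -0.22, -0.20 and -0.07 and all genes -0.33, -0.24, -0.10 and 0.01. With GC and length correction the members had -0.11, 0.02, -0.11 and -0.05 and all genes -0.03, -0.04, -0.03 and -0.03. The part of GC content and length in the members' lower values was not tested.

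**Figure D5:**
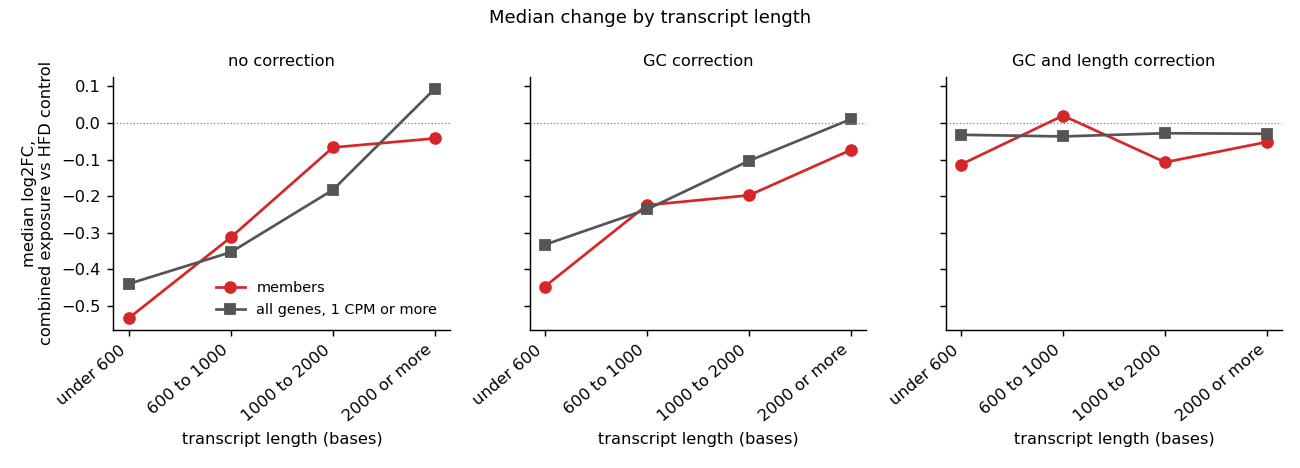
Median log2FC of the combined exposure against HFD control (vertical axis) in 4 bins of transcript length (horizontal axis, bases) for members (circles) and for all genes at 1 CPM or more (squares), without correction, with GC correction and with GC and length correction. Short members are lowest in the first panels (-0.53 and -0.45 under 600 bases), as are all short genes (-0.44 and -0.33), and in the last panel the medians lie between -0.11 and 0.02.

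The 8 members called lower without correction, with GC correction and with GC and length correction were Ndufs7 (-1.31, -0.62 and -0.43), Ndufb7 (-1.37, -0.75 and -0.50), Ndufa2 (-0.91, -0.87 and -0.58), Ndufa8 (-0.83, -0.58 and -0.41), Cox7c (-0.63, -0.88 and -0.56), Cox16 (-0.63, -1.31 and -1.22), Cox19 (-0.74, -0.75 and -0.72) and Atp5j2 (-0.53, -0.59 and -0.42). By role these are 4 subunits of complex I, 1 of complex IV with 2 of its assembly factors, and 1 of complex V. None of them was called with the GC slope as a covariate. Of all genes 4.83% were called lower with GC and length correction. The share of all genes lower in all 3 fits was not counted, so the 8 have no background beside them.

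With Aroclor alone none of the 104 members was called, and none of all genes tested (0%). At an unadjusted p under 0.05 there were 10 members, against 17.2% of all genes, and DESeq2 called none, against 0.921% of all genes. Of the members 86 of 104 (82.7%) had a log2FC below 0, with a median of -0.20, against -0.01 for all genes, and the lowest adjusted p was 0.199. The median was -0.23 for accessory subunits of complex I, -0.23 for complex IV, -0.17 for complex III, -0.18 for complex V and 0.03 for complex II. Ndufs7 had 23.2, 29.4, 29.4, 28.8 and 22.7 CPM, within the control range of 24.9 to 50.7 CPM or just below it (log2FC -0.57, adjusted p = 0.248). Ndufb7 was at -0.54 (adjusted p = 0.324), and Ndufs1, the highest of the members at 1 CPM or more, at 0.27 (adjusted p = 0.254). The next highest were Cox15 (0.25), which makes the haem of complex IV, and Ndufc2 (0.23), and the lowest was Cox7a1 (-1.12, adjusted p = 0.222), which was at -0.35 (adjusted p = 0.560) without HFD control replicate 4, a library with muscle transcripts. For no member did the groups fail to overlap, against 1.2% of all genes with the exposed mice below and 1.74% above. After GC correction the median over members was -0.18 and no member was called, with 13 at an unadjusted p under 0.05 against 14% of all genes. The median over members was -0.057 with GC and length correction and 0.0020 with the GC slope as a covariate.

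With PCB 126 alone no member was called either, against 0.103% of all genes higher and 0.0129% lower. Of the members 4 had an unadjusted p under 0.05, against 14.7% of all genes, and DESeq2 called 1, Atp5s (0.962%), where it called 2% of all genes. The median log2FC was -0.02, as over all genes, and the medians of the structural classes ran from -0.04 (accessory subunits of complex I and complex IV) to 0.09 (complex II). The 6 tissue isoforms of complex IV had a median of -0.57. Of these Cox7a1, Cox8b, Cox6a2 and Ndufa4l2 were highest in HFD control replicate 4. Atp5s, the distal coupling factor of complex V, had 13.8, 10.5, 12.6, 11.1 and 11.3 CPM against 10.2, 9.04, 9.27, 10.1 and 8.26 CPM in the control. It was the 1 member whose groups did not overlap, against 1.23% of all genes, at a log2FC of 0.34 (edgeR, adjusted p = 0.119). Ndufs7 was at 0.00 and Ndufb7 at -0.09. After Atp5s the highest values were those of Ndufc2 (0.30) and Ndufaf4 (0.29), and the lowest those of Cox7a1 (-1.0), Cox19 (-0.24) and Uqcr11 (-0.20). Without HFD control replicate 4 Cox7a1 was at -0.23 (adjusted p = 0.784). No member lay wholly below the control, against 0.908% of all genes. After GC correction no member was called, against 0.348% of all genes (0.251% higher and 0.0966% lower), and 3 had an unadjusted p under 0.05, against 15%. The exposure itself was visible in Cyp1a2, a target of the aryl hydrocarbon receptor, which was 2.04 higher on the log2 scale with PCB 126 alone and 1.00 higher with the combined exposure. Cyp1a1, another target, was called with PCB 126 alone (6.93, adjusted p = 0.00950) and not with the combined exposure (1.06, adjusted p = 0.502). Cyp2b10, a target of the receptor CAR, was called in no group (1.97 with Aroclor alone and 1.72 with the combined exposure).

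The combined exposure was set against each single exposure to ask what the other agent adds. Against PCB 126 alone 27 members were called lower and none higher, where 11% and 5.64% of all genes were called (16.7% in all). This comparison shares the combined-exposure mice with the one against HFD control. Ndufs7 was at -1.31 ± 0.24 (adjusted p = 0.0136), Ndufb7 at -1.28 ± 0.29 (adjusted p = 0.0144) and Uqcr11 at -1.13 ± 0.28 (adjusted p = 0.0174). The highest values, none of them called, were those of Ndufaf4 (0.30), Sdhaf3 (0.30) and Ndufs1 (0.26). These calls rested on single libraries, as did those of all genes. There were none without HFD + PCB 126 replicate 3, 3 without HFD + PCB 126 replicate 4, 2 without combined-exposure replicate 5 and 14 without combined-exposure replicate 4. Of all genes, 0.0258%, 1.86%, 1.74% and 6.19% were called in the same fits. After GC correction no member was called, as was no gene in all (0%), although 45 members had an unadjusted p under 0.05, against 19.9% of all genes. The median over members was -0.26 with GC correction, -0.097 with GC and length correction and 0.052 with the GC slope as a covariate. HFD + PCB 126 replicate 3 had the steepest GC slope of its group (0.39) and was the highest of the 5 mice in 36 of the 39 members lower in the combined exposure. For Ndufs7 the PCB 126 mice had 23.0, 30.7, 57.5, 50.2 and 37.1 CPM, all above the highest of the combined exposure (20.6 CPM).

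Against Aroclor alone no member was called, against 0.412% of all genes, and 24 members had an unadjusted p under 0.05, against 23.4% of all genes. DESeq2 called 7: Ndufs7, Ndufb7, Ndufa8, Uqcr11, Atp5g2 and Ndufaf3 lower, and Ndufaf4 higher, where DESeq2 called 5.74% of all genes lower and 2.91% higher. The median log2FC was -0.07. With GC correction no member was called, against 0.0451% of all genes (0.0322% lower and 0.0129% higher), and 16 had an unadjusted p under 0.05, against 11.5%. Ndufb7 (-0.83), Uqcr11 (-0.81) and Atp5g2 (-0.80) had the lowest values and Ndufaf4 the highest (0.39, adjusted p = 0.0650), before Uqcrb (0.34) of complex III and Atp5j (0.21). The interaction, which asks whether the combined exposure departs from the sum of both single changes on the log2 scale, was called for no member and no gene (0%). At an unadjusted p under 0.05 there were 4 members, against 11.9% of all genes, and DESeq2 called none. The median over members was -0.12, and Ndufb7 (-0.74), Ndufs7 (-0.74) and Atp5g2 (-0.73) were lowest. The highest were Cox7a1 (0.64), Uqcrb (0.34) and Ndufaf6 (0.29), and Cox7a1 turned to -0.13 without HFD control replicate 4.

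Single libraries were at the edge of their group for many members. HFD control replicate 4 was the lowest of the control mice in 37 of the 39 members called lower, and its GC slope (0.01) was the lowest of that group. Combined-exposure replicate 4 was lowest in 37 of the 39, with the lowest slope of all libraries (-0.64), and HFD + PCB 126 replicate 1 in 29, with a slope of -0.10. In the HFD + Aroclor group the ranks did not go with the GC slope. Replicate 5 was lowest in 22 with a GC slope of -0.0020, while replicate 1, with the lowest GC slope (-0.11), was lowest in 4. Replicate 2 (0.0050) was highest in 29 and replicate 3, with the highest GC slope (0.14), in 6. The slope against length was highest in this group for replicate 4 (0.12), lowest in 13 members, and replicate 5 (0.097). It was lowest for replicate 2 (-0.090).

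HFD control replicate 4 also held transcripts of muscle and fat. The muscle genes Acta1, Mb, Ckm and Myh1 stood at 12.1, 8.42, 5.35 and 7.11 CPM in it and at 0.301 CPM or less in every other library, while Tnnt2 and Actc1, the other muscle genes looked at, were not highest in it, and 4 of these 6 genes were called lower in the combined exposure. The fat genes Adipoq and Plin1 were at 11.4 and 8.07 CPM in it and at most 3.22 and 1.96 CPM elsewhere, while Lep, the third of that list, was at 0.132 CPM in it and highest in HFD + PCB 126 replicate 2 (1.42 CPM). Ucp1, the uncoupling protein of brown fat, was looked up after its values were seen and stood at 28.6 CPM, with 3.93 CPM in combined-exposure replicate 4 and at most 0.483 CPM elsewhere. The complex IV isoforms of muscle and brown fat followed this library: Cox8b was at 5.00 CPM in it and at most 0.629 CPM in the others, and Cox7a1 at 5.66 CPM against at most 1.88 CPM. Cox6a2 was at 0.395 CPM against at most 0.0875 CPM, with no counts in any combined-exposure library. Cox7a1 was called lower in the combined exposure (-1.48 ± 0.44, adjusted p = 0.0143), and without HFD control replicate 4 it was at -0.71 ± 0.31 (adjusted p = 0.0815). Without that library 39 members were called lower and 5 higher, against 18.3% and 18.6% of all genes. The counts equal those found with it, but 38 of the 39 lower calls were kept, Cox7a1 not among them. All 5 higher calls were kept. Without it and combined-exposure replicate 4 there were 37 and 4, against 16.1% and 14.3% of all genes.

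Other genes of the same pathway, taken from lists by function, moved in both directions. Of 25 assembly factors with other names, 7 were higher and 7 lower in the combined exposure, with a median of 0.07. Those lower included Sco2 (-0.89 ± 0.15), a copper chaperone of complex IV, and Uqcc3 (-0.93 ± 0.19), an assembly factor of complex III, and those higher Coa6 (0.74 ± 0.16) and Ttc19 (0.43 ± 0.09). After GC correction 1 was higher (Atpaf1, 0.36) and 2 lower (Uqcc3, -0.83, and Coa7, -0.50). Cyc1, the haem subunit of complex III, was at -0.49 ± 0.15 (adjusted p = 0.0187) and cytochrome c itself, Cycs, at -0.05 ± 0.10 (adjusted p = 0.747). With GC correction Cycs was at -0.57 (adjusted p = 0.0200) and Cyc1 at -0.12 (adjusted p = 0.547).

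Of 13 regulators of mitochondrial biogenesis, 4 were higher and 4 lower. The coactivator Ppargc1a rose by 0.97 ± 0.14 (adjusted p = 0.000505) and stayed higher with GC correction (0.48, adjusted p = 0.0291). Gabpa (0.80 ± 0.19) and the mitochondrial transcription factors Tfam (0.28 ± 0.09) and Tfb2m (0.50 ± 0.10) were higher, while Esrra (-0.96 ± 0.26), Polrmt (-0.93 ± 0.22), Ppargc1b (-0.65 ± 0.21) and Pprc1 (-0.69 ± 0.25) were lower, none of them after GC correction. Nrf1 was at -0.23 ± 0.13 (adjusted p = 0.196). The tricarboxylic acid cycle had 4 of 13 genes higher, Dld (0.63 ± 0.12) among them, and 1 lower, Mdh2 (-0.45 ± 0.12), with a median of -0.04. With GC correction none of these calls was kept, and 1 other gene, Fh1, was called lower (-0.35, adjusted p = 0.0291). Citrate synthase Cs was at -0.09 ± 0.10. Of 16 genes of general mitochondrial content 5 were higher and 3 lower, with a median of 0.15, and Vdac1, a pore of the outer membrane, was at 0.26 ± 0.09 (adjusted p = 0.0281). With GC correction none of these 8 calls was kept, the median was -0.01 and 1 other gene, Mfn2, was called higher (0.45, adjusted p = 0.00780).

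Markers of liver cell types were summed to see what moved beside these values. The 7 hepatocyte markers summed to 77532 to 86429 CPM in the control and 71784 to 100150 CPM in the combined exposure, and 3 of them were called lower, Ttr (-0.70 ± 0.18) also after GC correction. The 6 stellate cell and fibroblast markers summed to 137 to 291 CPM in the control and to 301 to 350 CPM in the combined exposure, without overlap. With Aroclor alone they summed to 256 to 368 CPM and with PCB 126 alone to 177 to 346 CPM. In the combined exposure Lrat, Reln and Dcn were higher and Des lower, none of them after GC correction. Of 6 Kupffer cell and macrophage markers 1 was called higher (Adgre1, 0.82, and not after GC correction, adjusted p = 0.146), of 5 endothelial markers 1 lower (Stab2, -0.50, and -0.45 after GC correction), and of the cholangiocyte, lymphocyte, neutrophil and adipocyte markers none. The part of the stellate cell and fibroblast markers in the members' values was not tested.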

How the data were processed

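Liver RNA of 20 mice was purified with RNeasy columns, made into poly(A)-selected stranded libraries and sequenced. The authors aligned the reads to the mouse genome with STAR 2.6 (GRCm38.p6) after FastQC 0.10.1, and the deposited values are raw counts per gene from HTSeq 0.10.0. Which annotation release was counted, and whether strand was used, is not given in the sources used here. Of the members, 26 share an exon with a gene on the other strand and 6 with one on the same strand, and 28 share over 10% of their 75-base words with other transcripts.

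Genes with at least 10 counts in all (15522 of 21780 rows) were tested with edgeR 4.0.16 in R 4.3.3. The quasi-likelihood test with TMM scaling was fitted to the 4 groups together (16 residual degrees of freedom), with p-values adjusted by Benjamini-Hochberg over all genes tested, and a gene was called at an adjusted p under 0.05. CPM are TMM-scaled, and FPKM divide them by the length of the principal transcript. The GC correction took a spline with 6 degrees of freedom of each library's deviation on GC content, over genes of 1 CPM or more, as an offset. The length correction was made likewise. GC values were available for 15516 genes and for every member. Levels were also compared without either correction, with other scalings and filters, with DESeq2 1.42.0, and without each mouse in turn. The tests were checked on simulated counts.

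Groups and replicate numbers were taken from the labels. The library names of HFD + PCB 126 replicates 2 and 3 carry the same number, and the replicate number written in the sample title was used. Same-group libraries differed by more than sampling noise in all 40 pairs (the chi-square divided by its degrees of freedom was 18.7 or more), and all 20 were kept as separate mice. Of 15 pairs of libraries with the same number, 8 correlated over 0.1 (range -0.23 to 0.76), so the numbers were not used as pairs. Depth was 21836506 to 36854887 counts per library, and a CPM thus rests on more than 20 counts.

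The members, gene lists and cell type markers were chosen with earlier results of these data known. Named were the core and catalytic subunits of each complex (1 result is not reported here), the isoforms of complex IV from other tissues, the 3 members with the highest and the 3 with the lowest log2FC in each comparison among those at 1 CPM or more, the members called with the combined exposure against the direction of the median, and those called in the same direction with and without GC correction. Other members, the single genes of the lists and Ucp1 were named after their values were seen.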

Additional observations from a re-analysis of the deposited data

Results flagged for a closer look

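In 10 of 255 groups of 5 mice, 1 mouse lay far from the others by Dixon's test, and chance gives about 1 in 20. HFD control replicate 4 was far above the other controls for the muscle and brown fat isoforms of complex IV, with 5.00 CPM for Cox8b, 5.66 CPM for Cox7a1 and 0.395 CPM for Cox6a2. The muscle genes Acta1, Mb, Ckm and Myh1 were 104, 79.8, 17.8 and 97.7 times as high in it as in the next highest library. Without it the log2FC of Cox8b in the combined exposure was 0.74, against -2.58 with it.

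Replicate 4 of the combined exposure was far below its group for Atp5e, the epsilon subunit of complex V, at 85.2 CPM, and for Ndufa1, an accessory subunit of complex I, at 49.1 CPM. HFD control replicate 3 was far above its group for Atp5f1 at 360.5 CPM. HFD + Aroclor replicate 2 stood high for Atp5s (12.3 CPM) and Cox11 (12.0 CPM). HFD + PCB 126 replicate 3 stood low for Cox11 at 7.98 CPM, and HFD + PCB 126 replicate 2 high for Uqcrc2, a core protein of complex III, at 419 CPM.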

How the results depend on the processing

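The calls in the combined exposure against HFD control (39 lower, 5 higher) depended on how GC content and length were treated. GC correction gave 18 lower and 1 higher and kept 14 of the 44 calls, GC and length correction 12 and 9 (9 of 44 kept), and GC content pooled over transcripts, chosen after seeing the data, 23 and 0 (18 kept). Of all genes these fits called 5.24%, 4.83% and 5.32% lower and 3.54%, 3.46% and 3.76% higher. The GC slope as a covariate gave 1 (Cox6a2) and 0, none of the 44, where 3.11% of all genes were lower and 0.219% higher. That fit can hardly tell the combined exposure from the slope. An adjusted p under 0.01 gave 22 lower and 3 higher, and the share of all genes at that threshold was not counted. HFD control replicate 4 left out with GC correction gave 26 lower and 1 higher, against 5.76% and 3.8% of all genes. Other scalings, filters, DESeq2 and only the groups compared kept 43 or 44. Leaving out each mouse gave 28 to 43 lower and 3 to 7 higher, with 3 higher without HFD control replicate 2 or combined-exposure replicate 5. Of all genes these fits called 13.1% to 19% lower and 11.1% to 18.6% higher. The cause was not tested. The TMM scaling without mitochondrial genes was not run, since it equals the scaling used when none is in the table.

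With the replicate block there were 41 lower and 5 higher members against HFD control, with all 44 calls kept, 34 lower against PCB 126 and none in the other comparisons. It changed no call by over 1.5 times. Of all genes it called 17.3% lower and 16.8% higher against HFD control and 12.4% lower against PCB 126. The replicate block with GC correction gave 22 lower and 1 higher against HFD control, against 5.41% and 3.91% of all genes. Against PCB 126 it gave 9, all lower, against 0.889% of all genes lower.

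Against PCB 126 alone the 27 calls became 0 with GC correction, GC and length correction, pooled GC content, the GC slope as a covariate and an adjusted p under 0.01. They became 1 (Ndufs7) with HFD control replicate 4 left out and GC correction, against 0.293% of all genes, and 41 with DESeq2, against 23.4%. Leaving out each mouse gave 0 to 36, against 0.0258% to 22.1% of all genes. Against Aroclor alone the 0 calls became 1 (Ndufaf4) with upper-quartile scaling, filterByExpr or the filter at 1 FPKM, against 1.62%, 2.27% and 6.79% of all genes. They became 7 with DESeq2, against 8.65%, and 0 to 3 without each mouse (3 without combined-exposure replicate 3, against 6.69%). With Aroclor alone the GC slope covariate gave 1 (Cox8b), against 3.22% of all genes. With PCB 126 alone DESeq2 gave 1 (Atp5s), against 2%. The interaction stayed at 0 in all settings.

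These log2FC in the combined exposure turned in sign. The values with the GC slope as a covariate come from a fit that can hardly tell this exposure from the slope. With the GC slope as a covariate they were 0.24 for Atp5d, 0.10 for Atp5e, 0.15 for Atp5j2, 0.17 for Cox4i1, 0.27 for Cox6a1, 0.12 for Cox6b1, 0.14 for Cox7a2, 0.17 for Cox7c, 0.24 for Cox8a, 0.20 for Ndufa1, 0.29 for Ndufa11, 0.26 for Ndufa2, 0.18 for Ndufa7, 0.16 for Ndufa8, 0.22 for Ndufb7, 0.14 for Ndufs8, 0.10 for Ndufv1, 0.18 for Sdhb, 0.19 for Uqcr10, 0.17 for Uqcr11 and 0.17 for Uqcrc1. With GC correction they were -0.22 for Atp5s, 0.11 for Cox6a1, 0.15 for Cox8a, -0.41 for Sdhaf3 and 0.022 for Uqcrc1, and with the replicate block added -0.22, 0.12, 0.16, -0.41 and 0.021. With GC and length correction they were 0.052 for Atp5e, -0.11 for Atp5s, 0.044 for Cox4i1, 0.38 for Cox6a1, 0.43 for Cox8a, -0.0017 for Ndufaf4, -0.45 for Sdhaf3, 0.015 for Sdhb and 0.064 for Uqcrc1. Pooled GC content gave -0.14 for Atp5f1, 0.28 for Cox6a1, 0.18 for Cox8a and -0.38 for Sdhaf3. HFD control replicate 4 left out with GC correction gave -0.24 for Atp5s, 0.094 for Cox6a1, 0.13 for Cox8a, -0.033 for Ndufaf4 and -0.43 for Sdhaf3. Low counts limit Cox6a2, with 18 reads in all.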
